A study of Homo sapiens with 9 samples.

Results

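The 10 genes SLC45A3, NDRG1, PMEPA1, HPGD, CAMKK2, ACSL3, ELL2, PLPP1, SORD and HERC3 are classical androgen-induced genes with roles in metabolism and signalling. They were taken by gene symbol from a deposited expression table of 60612 genes, in which each symbol had 1 entry, and each of the 10 passed the filter on low values described below, with 2107 to 150411 counts in every library. The cells were VCaP, an established line of human prostate cancer with a TMPRSS2-ERG fusion, and they were transfected for 4 days with siRNA 1 against KMT2C, with siRNA 2 against KMT2C, or with a control siRNA, in 3 libraries per group. KMT2C encodes a histone H3 lysine 4 methyltransferase that acts at enhancers, and the genotype labels are KMT2C deficiency for the knockdown cells and KMT2C normal for the control cells. All cells grew in DMEM with 10% FBS, and no group differed in hormone per the labels, so induction by androgen was not itself measured. The labels state neither the siRNA sequences nor separate cultures for the 3 libraries of a group, so p-values reflect the spread between these libraries alone, which may be technical.

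The androgen receptor is a nuclear receptor that, once bound by hormone, attaches to response elements at enhancers and promoters and recruits coactivators. In prostate cells it raises genes of secretion, lipid and sugar metabolism, membrane traffic and growth control. Much of this binding lies far from start sites, and some of its target genes also answer to other inputs, as NDRG1 does to hypoxia.

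To show the start regions that such a receptor-driven gene carries, RefSeq windows on GRCh38.p14 were used for 6 of the 10 genes. Each window holds 250 bases before and 50 bases after an annotated start. The 11 windows were those of SLC45A3, ACSL3, HERC3, HPGD, CAMKK2 and PMEPA1. ELL2, PLPP1 and SORD had no window. NDRG1, which fell with each siRNA, was left out of this step, so the window counts below do not cover it. Stretches upstream of the start are printed for SLC45A3 and ACSL3, which fell with each siRNA, and for CAMKK2 and PMEPA1, which passed the test with siRNA 2 and not with siRNA 1. Each stretch stops at the first base in an exon of the gene itself in GENCODE release 29, and of the PMEPA1 windows the one with both a half-site and an ETS site before the start is shown. The lines run 5′ to 3′ on the gene's strand, and capitals mark the androgen receptor half-site AGAACA, the ETS factor site CCGGAAG and the GC box GGGCGG, each searched on both strands. The PMEPA1 stretch lies in an exon of NKILA on the other strand.
SLC45A3, chr1:205680510-205680759, minus strand: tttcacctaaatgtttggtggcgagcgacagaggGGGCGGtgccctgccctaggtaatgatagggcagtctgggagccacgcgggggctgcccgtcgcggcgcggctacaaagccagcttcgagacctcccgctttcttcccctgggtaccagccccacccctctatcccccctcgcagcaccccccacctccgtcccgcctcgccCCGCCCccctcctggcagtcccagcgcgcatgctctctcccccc
ACSL3, chr2:222860786-222860933, plus strand: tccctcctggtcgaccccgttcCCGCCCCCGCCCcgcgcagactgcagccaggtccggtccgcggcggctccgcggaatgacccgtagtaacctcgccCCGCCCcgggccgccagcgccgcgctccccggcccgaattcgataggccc
CAMKK2, chr12:121296754-121296959, minus strand: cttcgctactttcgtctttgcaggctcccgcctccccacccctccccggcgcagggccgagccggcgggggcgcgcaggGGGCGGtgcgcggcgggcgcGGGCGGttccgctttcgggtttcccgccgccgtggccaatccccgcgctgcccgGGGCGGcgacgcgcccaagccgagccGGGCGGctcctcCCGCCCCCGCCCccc
PMEPA1, chr20:57710590-57710827, minus strand: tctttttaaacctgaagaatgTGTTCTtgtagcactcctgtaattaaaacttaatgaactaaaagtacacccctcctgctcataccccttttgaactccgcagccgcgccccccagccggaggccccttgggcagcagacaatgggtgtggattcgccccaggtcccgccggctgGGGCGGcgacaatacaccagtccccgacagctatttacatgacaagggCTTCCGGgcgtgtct
The half-site was found in 2 of the 11 windows, both of PMEPA1, against 14.8% of 35116 windows of all genes. The full palindrome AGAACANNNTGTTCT was in none of the 11, against 0.00285% of all windows. The ETS site was in 3 windows, of HPGD and PMEPA1 (10.3% of all windows), and the GC box was in 8 windows covering each of the 6 genes (45.0% of all windows). These matches describe the letters of the windows only, and the distant enhancers are not shown.

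KMT2C itself (ENSG00000055609, chromosome 7) was at 1.54, 1.80 and 2.28 FPKM with siRNA 1 and at 1.72, 1.64 and 1.73 FPKM with siRNA 2, against 13.7, 12.1 and 12.9 FPKM in control cells. On the log2 scale it fell by 2.81 ± 0.13 under siRNA 1 and by 2.98 ± 0.13 under siRNA 2 (SE). FPKM is fragments per kilobase of transcript, scaled for depth. Library totals were 58462215 to 70726213 estimated counts, and mitochondrial genes took 9.02% ± 0.698 of counts with siRNA 1 and 12.05% ± 0.119 with siRNA 2, against 10.6% ± 0.501 in control cells (SD, n = 3 each). All 12 markers of luminal prostate epithelium were present, and their summed level was 1095 to 1118 FPKM with siRNA 1 and 1148 to 1173 FPKM with siRNA 2, against 2020 to 2106 FPKM in control cells. The sum is weighted to the most abundant markers, KLK2 among them. KLK2 and TMPRSS2 are also in the list of androgen response genes below, so the sum and that list are not separate. Of the 12 markers 8 fell and none rose with siRNA 1, and 10 fell and 1 rose with siRNA 2. That was 66.7% and 91.7% called, beside 41.7% and 49.3% of all tested genes. The part of this marker shift in the results below was not tested. Retinal markers, listed because the series' design text calls the RNA retinal, summed to 0.821 to 1.05 FPKM with siRNA 1, 0.977 to 1.01 FPKM with siRNA 2 and 0.180 to 0.241 FPKM in control cells, and CRX, RCVRN and GNAT1 had 0 counts in all 9 libraries. Basal markers summed to 6.57 to 8.06 FPKM with siRNA 1 and 0.986 to 1.08 FPKM with siRNA 2, against 2.55 to 2.88 FPKM in control cells. Neuroendocrine markers summed to 3.81 to 4.86, 6.95 to 7.37 and 4.98 to 5.75 FPKM with siRNA 1, siRNA 2 and control siRNA, and immune, stromal and endothelial markers to 2.65 to 4.21, 2.11 to 3.33 and 2.26 to 3.52 FPKM. At most 3 of the 8 neuroendocrine markers and 1 of the 10 others had a mean of 1 FPKM or more in any group. In bulk RNA, fewer cells of a type and less RNA per cell cannot be told apart.

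The question for the 10 genes was how each stood in KMT2C knockdown cells relative to control cells, with siRNA 1 and siRNA 2 tested separately. Calls are at an adjusted p under 0.05 in the quasi-likelihood test of edgeR, adjusted by Benjamini-Hochberg over the 12830 genes with at least 1 FPKM in at least 3 libraries, and log2 fold changes carry ± SE. With siRNA 1, SLC45A3, NDRG1, PLPP1, ELL2, ACSL3 and HPGD fell and SORD rose. With siRNA 2, SLC45A3, NDRG1, PMEPA1, PLPP1, ACSL3 and CAMKK2 fell and HPGD rose. The 7 of 10 called with siRNA 1 stood beside 41.7% of all tested genes, and the 6 falls beside 20.5% of all tested genes. The 7 of 10 called with siRNA 2 stood beside 49.3% of all tested genes, and the 6 falls beside 24.9%. The single rise stood beside 21.2% of tested genes with siRNA 1 and 24.4% with siRNA 2. Over the 10 genes the median log2 fold change was -0.34 with siRNA 1 and -0.45 with siRNA 2, beside 0.01 and 0.02 over all tested genes. FPKM ranges did not overlap with those of control cells for 6 of the 10 genes with siRNA 1 (53.1% of all tested genes) and for 8 with siRNA 2 (62.8%). Both comparisons use the same 3 control libraries, so their values are given side by side and not as independent evidence.

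**Figure D1:**
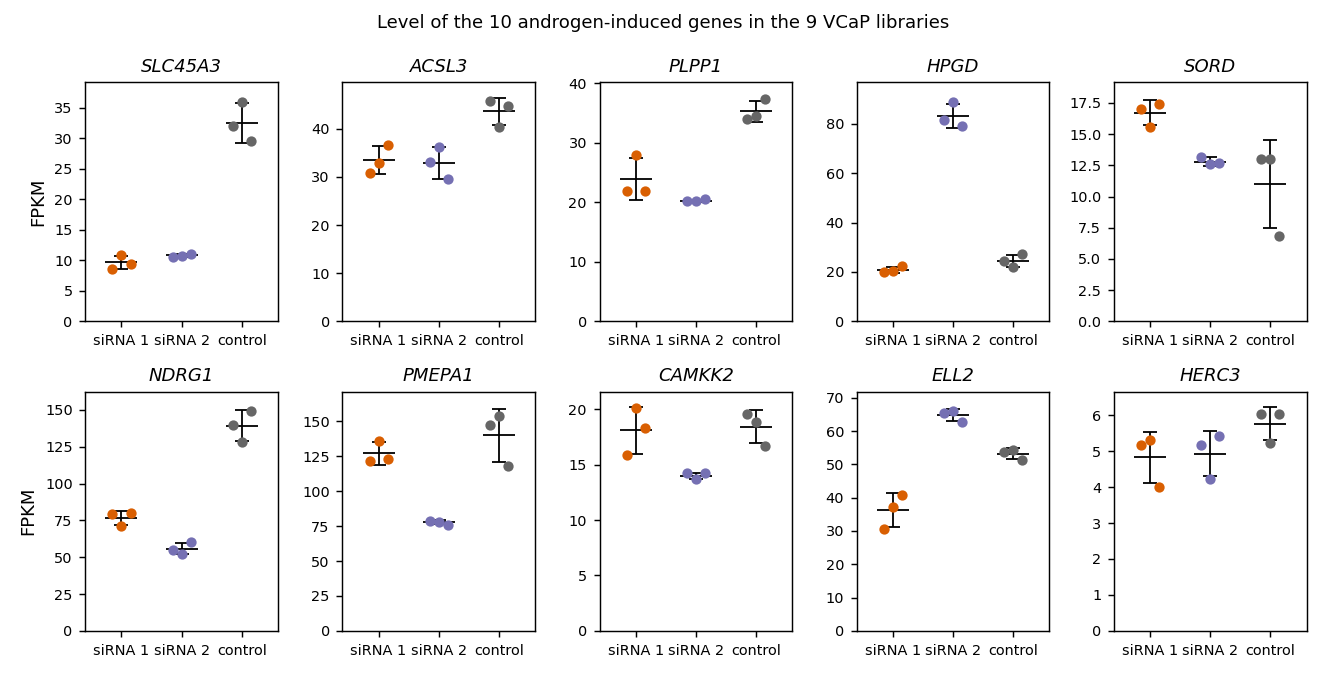
Level of each of the 10 genes in FPKM (vertical axis, starting at 0) in the 3 libraries with siRNA 1, siRNA 2 and control siRNA. Points are libraries, the wide dash is the mean and bars are the SD. SLC45A3 and NDRG1 were below every control library with each siRNA, while HPGD stood at 79.2 to 88.6 FPKM with siRNA 2, above the 22.2 to 27.1 FPKM of control cells.

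SLC45A3 (ENSG00000158715, chromosome 1, 205657851 to 205680509, minus strand) encodes prostein, a prostate-enriched membrane protein of the sugar transporter type, whose gene is also a fusion partner of ETS genes in prostate cancer. It was at 8.62, 10.9 and 9.48 FPKM with siRNA 1 and at 10.6, 10.7 and 11.0 FPKM with siRNA 2, against 32.0, 35.9 and 29.5 FPKM in control cells. Every knockdown library was below every control library, and the siRNA 1 and siRNA 2 ranges overlapped. Mean FPKM was 3.37-fold lower with siRNA 1 and 3.02-fold lower with siRNA 2, and on the log2 scale siRNA 1 gave -1.78 ± 0.10 (adjusted p = 7.25e-06), siRNA 2 -1.65 ± 0.10 (adjusted p = 3.81e-06). It was the largest fall among the 10 genes with each siRNA. The difference between the siRNA effects was -0.13 ± 0.10 and did not pass the test (adjusted p = 0.341), with an interval of -0.32 to 0.06. Intervals here and below reach 1.96 SE each way. With so few libraries they are narrower than true 95% intervals. In its family, siRNA 1 gave a fall of SLC45A4 (-1.21, adjusted p = 1.59e-04), while its siRNA 2 value of -0.25 did not pass. SLC45A1 was at 0.510 and 0.942 FPKM with siRNA 1 and siRNA 2, against 1.27 FPKM in control cells, and would not have been tested without the control libraries. SLC45A2 did not pass the filter on low values, at 0.0276 to 0.101 FPKM over the group means.

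ACSL3 (ENSG00000123983, chromosome 2, 222860942 to 222942222, plus strand) encodes a long-chain acyl-CoA synthetase, which couples fatty acids to coenzyme A for storage in lipid droplets. Its level was 30.9, 32.9 and 36.7 FPKM with siRNA 1 and 33.0, 36.3 and 29.5 FPKM with siRNA 2, against 45.7, 40.4 and 44.8 FPKM in control cells. The knockdown libraries were below the control libraries without overlap and were mixed between the siRNAs. ACSL3 fell by 0.41 ± 0.09 with siRNA 1 (adjusted p = 0.00732), and by 0.46 ± 0.09 under siRNA 2 (adjusted p = 0.00293). The siRNA effects differed by 0.06 ± 0.09, which did not pass the test (adjusted p = 0.673), with an interval of -0.12 to 0.23. Among 10 tested acyl-CoA synthetase and fatty acid activation genes, ACSL3 included, 5 fell and 3 rose with siRNA 1, and 7 fell and 1 rose with siRNA 2, with medians of -0.27 and -0.87. The 80.0% called with each siRNA stood beside 41.7% and 49.3% of all tested genes. ACSL4 reached the filter through siRNA 2 and control libraries only. Without it the numbers that fell and rose were the same among 9 genes, with medians of -0.34 and -0.95. ACSL5, another long-chain synthetase, fell by 0.61 and 1.50 on the log2 scale with siRNA 1 and siRNA 2, and ACSL1 fell by 0.81 and 0.95. ACSS1, a mitochondrial acetyl-CoA synthetase, fell by 0.50 and 1.73. SLC27A4, a fatty acid transport protein with synthetase activity, rose by 0.36 and 0.78.

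PLPP1 (ENSG00000067113, chromosome 5, 55424854 to 55534969, minus strand) encodes a lipid phosphate phosphatase that removes the phosphate from lipids such as phosphatidic acid. It was at 21.9, 28.0 and 21.9 FPKM with siRNA 1 and at 20.3, 20.2 and 20.5 FPKM with siRNA 2, against 34.0, 34.6 and 37.4 FPKM in control cells. No knockdown library reached the lowest control library, and the second siRNA 1 library was the highest of the 6. PLPP1 fell by 0.59 ± 0.10 under siRNA 1 (adjusted p = 0.00172), and by 0.85 ± 0.10 under siRNA 2 (adjusted p = 1.46e-04). The difference of 0.27 ± 0.10 between the siRNAs had an adjusted p of 0.0594 and an interval of 0.07 to 0.46. It passed without the first or without the third siRNA 1 library (0.32, adjusted p = 0.0471, and 0.33, adjusted p = 0.0380). Without the second siRNA 1 library it was 0.15 (adjusted p = 0.150). Exons of PLPP1 share 481 bases with MTREX on the opposite strand, and the labels do not say whether counting used strand. MTREX had 0.08 with each siRNA and passed with neither. Of 7 tested lipid phosphate phosphatase and lipin genes, 4 fell and 1 rose with siRNA 1, and 6 fell and none rose with siRNA 2. That was 71.4% and 85.7% called, beside 41.7% and 49.3% of all tested genes. LPIN2, a phosphatidate phosphatase, fell by 0.40 and 0.85, LPIN3 by 0.81 and 0.43, and PLPP5 by 0.52 and 0.24, while PLPP3 had a rise of 0.42 under siRNA 1 and a fall of 0.49 under siRNA 2. The list's median was -0.40 with siRNA 1 and -0.43 with siRNA 2. With upper quartile scaling 4 of these 7 genes fell and 1 rose with siRNA 2.

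HPGD (ENSG00000164120, chromosome 4, 174490175 to 174523065, minus strand) encodes the dehydrogenase that inactivates prostaglandin E2. HPGD was at 19.8, 20.3 and 22.4 FPKM with siRNA 1 and at 81.5, 88.6 and 79.2 FPKM with siRNA 2, against 24.3, 22.2 and 27.1 FPKM in control cells. All siRNA 2 libraries were far above the other 6, and the siRNA 1 range overlapped that of control cells. Its mean was 3.38-fold higher with siRNA 2 (1.70 ± 0.09 on the log2 scale, adjusted p = 1.71e-06), the largest change of that comparison among the 10 genes. With siRNA 1 the fall was -0.26 ± 0.09 (adjusted p = 0.0386), and it did not pass in 12 of 19 alternative fits (adjusted p 0.0189 to 0.116 over all 19), among them those without control library 1 or 3 (adjusted p = 0.0669 and 0.116), without siRNA 1 library 1 or 2 (0.0910 and 0.105), without siRNA 2 library 1 or 3 (0.0575 and 0.0508), and with a replicate block (0.0544). The siRNA 1 effect minus the siRNA 2 effect was -1.96 ± 0.09 (adjusted p = 2.41e-06), the widest gap among the 10 genes. Of 8 tested genes of prostaglandin synthesis, transport and breakdown, HPGD included, 3 rose and 3 fell with siRNA 1, and 5 rose and 2 fell with siRNA 2. That was 75.0% and 87.5% called, beside 41.7% and 49.3% of all tested genes. PTGR1, a prostaglandin reductase, fell by 1.20 and 1.87. PTGES, a prostaglandin E synthase, went up with siRNA 1 (0.72) and down with siRNA 2 (-1.48). ABCC4, an exporter of prostaglandins that is also in the list of androgen response genes, was lower with siRNA 1 (-0.99) and higher with siRNA 2 (0.37), both past the test. The list's median was 0.04 and 0.31 with siRNA 1 and siRNA 2. The cyclooxygenase genes PTGS1 and PTGS2 did not pass the filter on low values, with group means of at most 0.154 FPKM.

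SORD (ENSG00000140263, chromosome 15, 45023147 to 45077172, plus strand) encodes sorbitol dehydrogenase, which turns sorbitol into fructose in the polyol pathway. Its level was 17.0, 15.6 and 17.4 FPKM with siRNA 1 and 13.2, 12.6 and 12.7 FPKM with siRNA 2, against 13.0, 13.0 and 6.86 FPKM in control cells. Control library 3 was well below the other 8, which gave SORD the widest relative spread of any of the 10 genes in any group (32.3% of the mean in control cells). With siRNA 1 it rose by 0.58 ± 0.21 (adjusted p = 0.04997), just inside the threshold, and with siRNA 2 the value of 0.18 ± 0.21 did not pass (adjusted p = 0.513) and was -0.07 without control library 3, and 0.30 or 0.33 without control library 1 or 2. Without control library 3 the siRNA 1 change was 0.34 ± 0.07 (adjusted p = 0.00850), and over all 19 alternative fits the call was lost in 11 (adjusted p 0.00850 to 0.121), among them each fit without 1 siRNA 1 library (adjusted p 0.072 to 0.121) or 1 siRNA 2 library (0.0687 to 0.0691), and the replicate block (0.0567). Library 3 of the controls had 208 genes more than 1.5-fold above and 372 genes more than 1.5-fold below both other control libraries. The same counts were 263 and 305 for control library 1, and 234 and 317 for control library 2. Over all 9 libraries, each against the others of its group and control library 3 included, they ran from 201 to 289 and from 305 to 445. The siRNA effects differed by 0.41 ± 0.21, which did not pass (adjusted p = 0.154, interval 0.00 to 0.81). Control libraries enter this difference through the spread only. It passed without control library 3 (0.41 ± 0.06, adjusted p = 0.00196). It also passed in the fit of the siRNA 1 and siRNA 2 libraries alone (0.40 ± 0.07, adjusted p = 0.00545), and in none of the other alternative fits. SORD2P, a pseudogene copy on the same chromosome, rose by 0.60 with siRNA 1 (adjusted p = 0.00402) and had 0.05 under siRNA 2, and the values of both copies are uncertain because the labels do not say how shared reads were assigned. Of 7 tested polyol and fructose genes, SORD included, 2 rose and 1 fell with each siRNA, with medians of 0.15 with siRNA 1 and -0.07 with siRNA 2, the second 0.03 with upper quartile scaling. The 42.9% called with each siRNA stood beside 41.7% and 49.3% of all tested genes. The hexokinase gene HK2 rose by 0.66 and 0.72. ALDOC, aldolase C, fell by 0.98 under siRNA 1, against -0.07 under siRNA 2, which did not pass. The triokinase gene TKFC rose by 0.51 under siRNA 2, and its 0.25 under siRNA 1 did not pass. AKR1B1, the aldose reductase gene ahead of SORD in the pathway, was at 0.137 to 0.258 FPKM over the group means and did not pass the filter.

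NDRG1 (ENSG00000104419, chromosome 8, 133237175 to 133302022, minus strand) encodes a cytoplasmic stress-response protein that is induced by androgen and by hypoxia. It was at 79.0, 70.9 and 79.8 FPKM with siRNA 1 and at 55.1, 52.3 and 60.2 FPKM with siRNA 2, against 139.7, 128.4 and 149.4 FPKM in control cells. The 3 groups did not overlap, with siRNA 2 lowest. NDRG1 was 1.82-fold lower with siRNA 1 (-0.89 ± 0.09, adjusted p = 1.07e-04), and 2.49-fold lower under siRNA 2 (-1.37 ± 0.09, adjusted p = 5.20e-06). The siRNA effects differed by 0.49 ± 0.09 (adjusted p = 0.00227). In its family NDRG3 fell by 0.55 with siRNA 1 (adjusted p = 0.0492) and by 0.61 with siRNA 2, and NDRG2 fell by 0.50 under siRNA 2, with -0.18 under siRNA 1, while NDRG4 did not pass the filter. With upper quartile scaling the NDRG3 call was lost with siRNA 1 (adjusted p = 0.0634) and the NDRG2 call with siRNA 2 (adjusted p = 0.0592). Among 12 tested hypoxia-induced genes other than NDRG1, 1 rose and 2 fell with siRNA 1, and 2 rose and 2 fell with siRNA 2. The 25.0% and 33.3% called were below the 41.7% and 49.3% of all tested genes. Medians of the 12 were -0.03 and -0.20, the first 0.02 with upper quartile scaling. Without 2 genes that reached the filter only with the libraries of 1 group, none of 10 rose and 2 fell with siRNA 1. ADM, adrenomedullin, fell by 2.17 and 1.01. The glycolytic gene PGK1 fell by 1.17 under siRNA 2 and had -0.06 under siRNA 1. VEGFA, a vascular growth factor gene, rose by 0.81 under siRNA 2 and had 0.03 under siRNA 1.

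**Figure D2:**
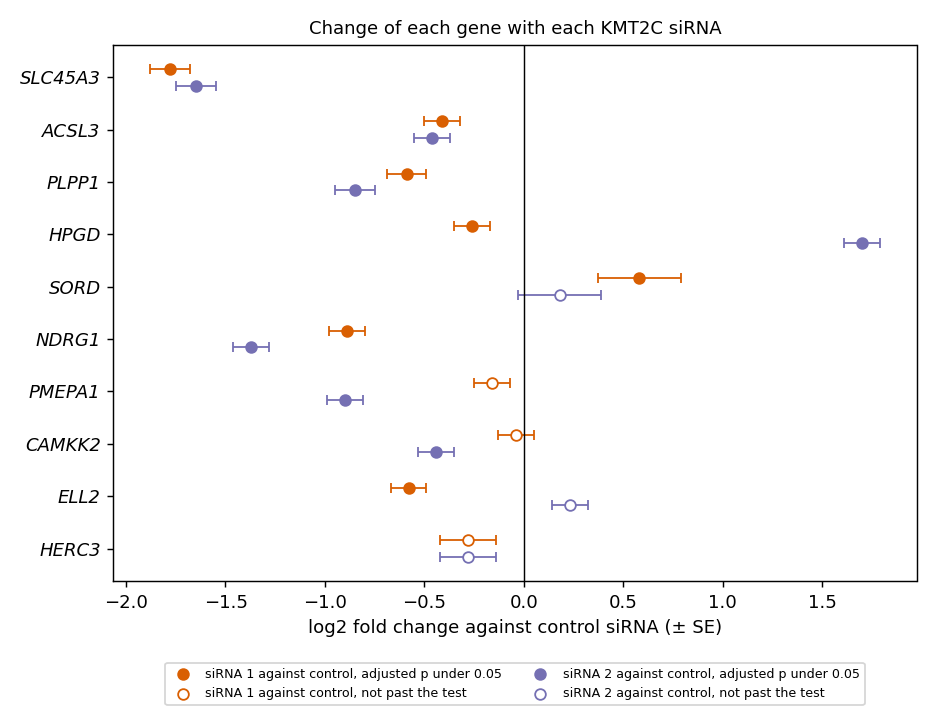
Log2 fold change of each gene (horizontal axis, bars are the SE) with siRNA 1 and siRNA 2 against control siRNA, with filled points at an adjusted p under 0.05 and open points where the test was not passed. SLC45A3, NDRG1, PLPP1 and ACSL3 are filled and left of 0 for both siRNAs, while HPGD is at -0.26 with siRNA 1 and 1.70 with siRNA 2.

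PMEPA1 (ENSG00000124225, chromosome 20, 57648392 to 57711536, minus strand) encodes a membrane adaptor that binds NEDD4-type ubiquitin ligases and SMAD proteins and dampens TGF-beta signalling. PMEPA1 had 121.6, 136.2 and 123.1 FPKM with siRNA 1 and 79.0, 78.2 and 76.1 FPKM with siRNA 2, against 147.3, 154.1 and 118.3 FPKM in control cells. The siRNA 2 libraries were below all others, while those with siRNA 1 lay within the control range. With siRNA 2 it fell by 0.90 ± 0.09 (adjusted p = 7.68e-05), and with siRNA 1 the change of -0.16 ± 0.09 did not pass (adjusted p = 0.192). That value was -0.27 (adjusted p = 0.0180) without control library 3, the lowest of the controls, and -0.08 (adjusted p = 0.518) without control library 2, and 0.0180 to 0.518 was the range of adjusted p over the 19 alternative fits. The siRNA effects differed by 0.74 ± 0.09 (adjusted p = 3.84e-04). NKILA, a long noncoding RNA that shares 343 exonic bases with PMEPA1 on the opposite strand, fell by 0.48 under siRNA 2 (adjusted p = 0.0257) and had -0.27 under siRNA 1. Its FPKM range with siRNA 2 overlapped that of control cells. Over all libraries NKILA had 16546 counts and PMEPA1 461635. As the use of strand in counting is not stated, the NKILA values may hold reads of PMEPA1. Of 14 tested TGF-beta ligand, receptor, SMAD and ubiquitin ligase genes, PMEPA1 included, 7 fell and 2 rose with siRNA 1, and 7 fell and 1 rose with siRNA 2, with medians of -0.37 and -0.28. That was 64.3% and 57.1% called, beside 41.7% and 49.3% of all tested genes. The ubiquitin ligase gene NEDD4L fell by 1.90 and 0.94 and SMURF2 by 0.54 and 0.72. TGFB2, a ligand gene, was at 0.335 and 3.96 FPKM with siRNA 1 and siRNA 2, against 0.169 FPKM in control cells. It was tested only because its siRNA 2 libraries reached the filter, so it had to differ there, and without it 1 rose and 7 fell of 13 with siRNA 1, and none rose and 7 fell with siRNA 2.

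CAMKK2 (ENSG00000110931, chromosome 12, 121237675 to 121298308, minus strand) encodes a calcium-dependent kinase that activates AMP-activated protein kinase (AMPK) and calmodulin kinases. Its level was 15.9, 20.1 and 18.3 FPKM with siRNA 1 and 14.2, 13.7 and 14.2 FPKM with siRNA 2, against 19.6, 18.8 and 16.7 FPKM in control cells. The siRNA 2 libraries were below every other library, and the siRNA 1 libraries were mixed with the controls. CAMKK2 fell with siRNA 2 by 0.44 ± 0.09 (adjusted p = 0.00277) and had -0.04 ± 0.09 with siRNA 1 (adjusted p = 0.714), a difference of 0.40 ± 0.09 (adjusted p = 0.00657). Among 15 tested genes of the CaMKK and AMPK pathway, CAMKK2 included, 4 rose and 2 fell with siRNA 1, and 3 rose and 6 fell with siRNA 2, with medians of 0.15 and -0.34. That was 40.0% and 60.0% called, beside 41.7% and 49.3% of all tested genes. PRKAA1, a catalytic AMPK subunit, fell by 0.31 and 1.43. PRKAA2, the other catalytic subunit, was at 1.67 and 0.605 FPKM with siRNA 1 and siRNA 2, against 0.499 FPKM in control cells. It reached the filter through the siRNA 1 libraries alone, and without it 3 rose and 2 fell of 14 with siRNA 1. PRKAG2, a regulatory subunit, fell by 1.29 under siRNA 2, with 0.26 under siRNA 1. CAMKK1, the paralog of CAMKK2, rose by 0.71 under siRNA 1, against 0.05 under siRNA 2, and CAMK1D, a target kinase gene, rose by 1.79 and 2.78 and was chosen after its values were seen.

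ELL2 (ENSG00000118985, chromosome 5, 95885098 to 95961851, minus strand) encodes an elongation factor of RNA polymerase II and a subunit of the super elongation complex. ELL2 was at 30.7, 37.2 and 40.7 FPKM with siRNA 1 and at 65.4, 66.1 and 62.7 FPKM with siRNA 2, against 53.8, 54.3 and 51.3 FPKM in control cells. The 3 groups did not overlap in FPKM, with siRNA 1 lowest and siRNA 2 highest. With siRNA 1 it fell by 0.58 ± 0.09 (adjusted p = 0.00110). With siRNA 2 it had 0.23 ± 0.09, which did not pass (adjusted p = 0.0611) but did in 6 of 19 alternative fits (adjusted p 0.00513 to 0.182 over all 19), among them those without siRNA 1 library 1 (adjusted p = 0.00573) and without siRNA 1 library 3 (adjusted p = 0.0341). The siRNA effects differed by -0.81 ± 0.09 (adjusted p = 1.83e-04). Of 16 tested genes of the elongation complex and its regulators, ELL2 included, 2 rose and 6 fell with siRNA 1, and 4 rose and 6 fell with siRNA 2. These counts stood beside 41.7% of all tested genes called with siRNA 1 and 49.3% with siRNA 2. With upper quartile scaling 3 rose and 6 fell with siRNA 1, and 7 rose and 6 fell with siRNA 2. The list's medians were -0.04 and 0.01 with siRNA 1 and siRNA 2, and their signs turned with the scaling (0.01 with siRNA 1 under upper quartile). EAF1, an ELL partner, fell by 0.65 and 0.42, and the scaffold gene AFF4 fell by 0.69 and 0.90. AFF3, a relative of AFF4, was at 0.444 and 2.16 FPKM with siRNA 1 and siRNA 2, against 0.264 FPKM in control cells. It too reached the filter through the siRNA 2 libraries alone, and without it 1 rose and 6 fell of 15 with siRNA 1, and 3 rose and 6 fell with siRNA 2. The paralog ELL had 0.05 and -0.25 and passed with neither siRNA.

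HERC3 (ENSG00000138641, chromosome 4, 88592434 to 88708539, plus strand) encodes a ubiquitin ligase with HECT and RCC1-like domains. It had 5.16, 5.31 and 4.01 FPKM with siRNA 1 and 5.17, 4.22 and 5.41 FPKM with siRNA 2, against 6.04, 5.24 and 6.03 FPKM in control cells. The 3 groups overlapped. HERC3 passed the test with neither siRNA, at -0.28 ± 0.14 under siRNA 1 (adjusted p = 0.131), and -0.28 ± 0.14 under siRNA 2 (adjusted p = 0.121), and the difference between the siRNAs had an interval of -0.27 to 0.26. It shares 459 exonic bases with the gene AC098582.1 on the same strand. In its family HERC6 fell by 0.52 and 0.64, and under siRNA 2 HERC2 rose by 0.37 and HERC4 by 0.47, with -0.13 and 0.02 under siRNA 1. HERC1 passed with neither, and HERC5 did not pass the filter.

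Set directly against each other, siRNA 1 and siRNA 2 differed for 5 of the 10 genes, beside 39.5% of all tested genes. NDRG1, PMEPA1 and CAMKK2 were higher with siRNA 1 than with siRNA 2 (20.6% of tested genes were higher), and HPGD and ELL2 were lower (18.9% of tested genes were lower). KMT2C had 0.17 in this comparison, which did not pass (adjusted p = 0.309). The order of the 10 levels by mean FPKM differed between the groups. With siRNA 1 PMEPA1 led at a mean of 127.0 FPKM, followed by NDRG1 at 76.6 FPKM and ELL2 at 36.2 FPKM, and HERC3 was last at 4.83 FPKM. With siRNA 2 HPGD led at 83.1 FPKM, followed by PMEPA1 at 77.8, ELL2 at 64.8 and NDRG1 at 55.9 FPKM, with HERC3 last at 4.93 FPKM, and no neighbours in that order overlapped. In control cells PMEPA1 and NDRG1 led at 139.9 and 139.2 FPKM with overlapping ranges, ELL2 followed at 53.2 FPKM, and HERC3 was last at 5.77 FPKM. SLC45A3 was sixth in control cells at 32.5 FPKM, where its range overlapped that of PLPP1, and next to last with each siRNA, at 9.66 FPKM with siRNA 1 and 10.8 FPKM with siRNA 2. With siRNA 1 the ranges of ELL2 and ACSL3 overlapped, as did those of neighbours from PLPP1 through HPGD and CAMKK2 to SORD.

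Among the other androgen response genes, taken from a hand-written list of 76 known targets, 69 were tested. With siRNA 1 35 of the 69 fell and 9 rose, while 20.5% of all tested genes fell and 21.2% rose. With siRNA 2 35 of the 69 fell and 13 rose, while 24.9% of all tested genes fell and 24.4% rose. The median log2 fold change of the 69 was -0.33 with siRNA 1 and -0.39 with siRNA 2, beside 0.01 and 0.02 over all tested genes, and the extremes were -2.94 and 1.26 with siRNA 1. With siRNA 2 they were -4.40 and 1.74, leaving out 1 gene that reached the filter through the siRNA 2 libraries alone. Without that gene 12 of 68 rose, 35 fell and the median was -0.46 with siRNA 2. TMPRSS2, a membrane serine protease gene, fell to 19.3 ± 0.655 FPKM with siRNA 1 and 43.0 ± 0.451 FPKM with siRNA 2, against 96.4 ± 1.86 FPKM in control cells (SD, n = 3 each). The kallikrein gene KLK2 fell to 294.1 and 211.7 FPKM with siRNA 1 and siRNA 2, against 828.4 FPKM in control cells. SPDEF, which encodes an ETS-family transcription factor, was higher with siRNA 1 (0.41) and lower with siRNA 2 (-2.25), both past the test.

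**Figure D3:**
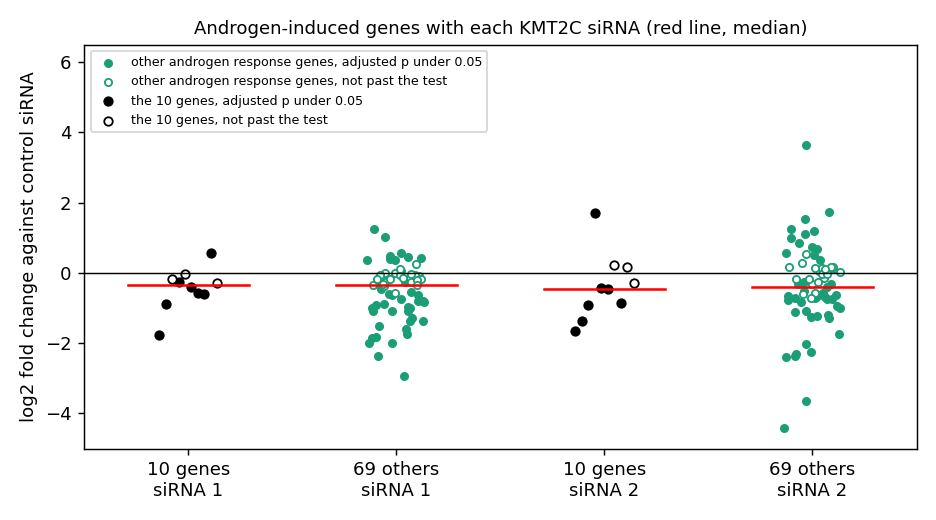
Log2 fold change against control siRNA (vertical axis) of the 10 genes (black) and of 69 other tested androgen response genes (green) with siRNA 1 and with siRNA 2. Each point is a gene, filled at an adjusted p under 0.05, and red lines are medians, at -0.34 and -0.33 with siRNA 1 and at -0.45 and -0.39 with siRNA 2. The 69 include 1 gene that reached the filter on low values through the siRNA 2 libraries alone.

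Of 13 tested genes in a list of androgen signalling factors, which holds transcription factors and coregulators, none rose and 9 fell with siRNA 1, and 2 rose and 7 fell with siRNA 2, with medians of -0.45 and -0.28. The 69.2% called with each siRNA stood beside 41.7% and 49.3% of all tested genes. GATA2, a factor that helps the androgen receptor bind, fell by 0.82 with siRNA 1 and 1.71 with siRNA 2. The homeobox gene HOXB13 fell by 1.18 under siRNA 2, with -0.19 under siRNA 1 (adjusted p = 0.104).

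**Figure D4:**
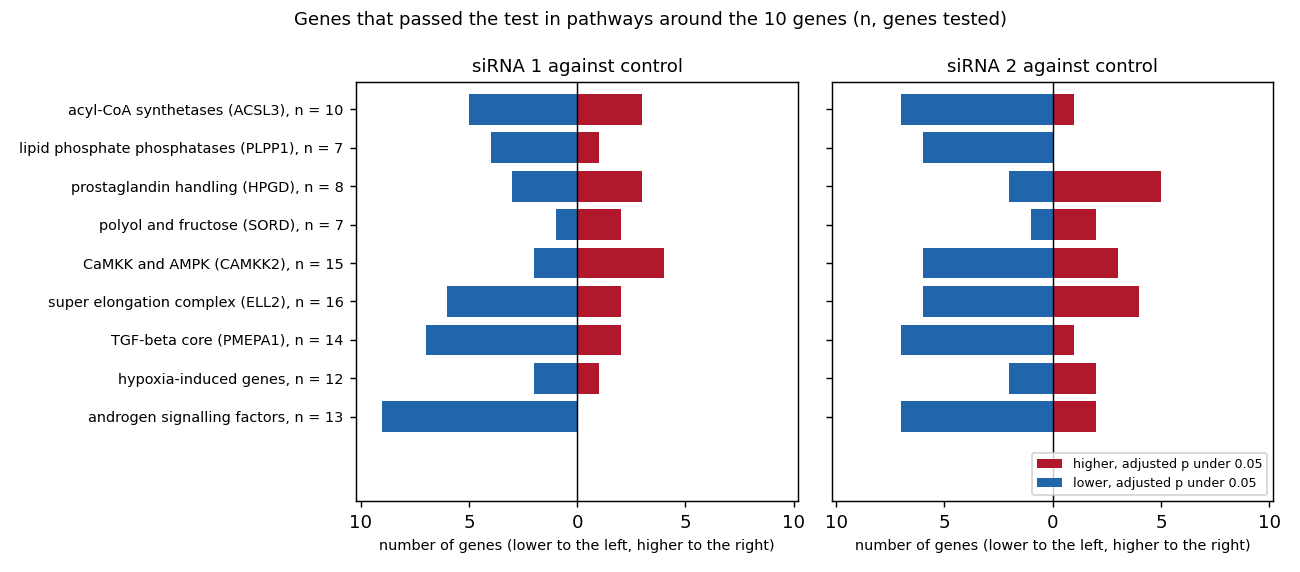
Number of genes that passed the test in 9 pathway lists (rows, with the number of genes tested) with siRNA 1 (left panel) and siRNA 2 (right panel) against control, lower ones to the left in blue and higher ones to the right in red. The lists include TGFB2, AFF3, PRKAA2 and some hypoxia-induced genes, which reached the filter on low values only with the libraries of 1 group. TGFB2 is the only rise of the TGF-beta list with siRNA 2. Among the acyl-CoA synthetases 5 fell and 3 rose with siRNA 1, and 7 fell and 1 rose with siRNA 2. Of all tested genes 41.7% passed with siRNA 1 and 49.3% with siRNA 2.

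Genes whose profile over the 9 libraries was most like that of a gene that fell with each siRNA were ranked by the root mean square distance between log2 CPM values (counts scaled for library size), each gene centred on its own mean. For SLC45A3, whose own values lay 0.814 from their mean by this measure, they were ARHGAP29, a GTPase-activating protein gene, at 0.0943 and SEPTIN7P2 at 0.121. ARHGAP29 had 3.64 FPKM with siRNA 1 and 4.29 FPKM with siRNA 2, against 12.5 FPKM in control cells. For NDRG1 (0.575 from its mean) the nearest were HGD, homogentisate dioxygenase, at 0.0666 and CMTM8 at 0.0717. HGD had 25.4 FPKM with siRNA 1 and 18.3 FPKM with siRNA 2, against 47.7 FPKM in control cells. For PLPP1 (0.370) they were the receptor tyrosine kinase gene ERBB2 at 0.0570 and MAN2B2, a lysosomal mannosidase gene, at 0.0723, and for ACSL3 (0.228) they were PAXIP1-AS2 at 0.0663 and SFXN5, a mitochondrial carrier gene, at 0.0741. These distances are descriptions of 9 libraries in 3 groups and carry no test.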

How the data were processed

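Expression of human VCaP cells was measured by RNA sequencing in 9 libraries, grouped by their titles into 3 with siRNA 1, 3 with siRNA 2 and 3 with control siRNA. Per the file headers the deposited table holds counts, treated here as estimated counts: they are whole numbers, 11286 of them are 4 against 4677 at 3 and 2524 at 5, so 1 fragment may stand for about 4 counts, and rounding changed 0 values. The FPKM columns were calculated by the authors, who listed genes without counts at 0.0001. Bowtie 0.12.2 and the builds hg38 and mm8 are named, with no role, in the submitters' processing notes. The counting tool and the annotation are not stated. Coordinates are those of the table and lie on GRCh38: of the genes given here each overlaps its GENCODE release 29 entry. Promoter sequences are from RefSeq (GRCh38.p14).

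Genes with at least 1 FPKM in at least 3 libraries (12830) were tested with edgeR 4.0.16 (R 4.3.3), TMM scaling and the 2-sided quasi-likelihood F test, with 1 mean per group and all 9 libraries. The SE is the size of the log2 fold change over the square root of F. The genes, lists and rules were chosen with earlier results of these data known. By rule, named genes are the 10 members and their families, up to 3 per list with the smallest adjusted p, and the 2 nearest profiles, of which a few are left out here. CAMK1D, PTGS1, PTGS2, AKR1B1, overlapping genes, the copy SORD2P and marker genes are named outside the rule. On counts simulated for siRNA 1 against control over 12830 genes, 64% of 100 genes changed by 1 on the log2 scale and 17% of 100 changed by 0.5 were called. Far fewer genes were changed in the simulation than were called in the data, which makes the adjusted threshold stricter there. These shares are therefore not the sensitivity of the reported tests. Alternatives used DESeq2 1.42.0, limma 3.58.1, other scalings and filters, counts divided by 4, a replicate block, and each library left out. Depth was 58462215 to 70726213 counts per library.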

Additional observations from a re-analysis of the deposited data

Results flagged for a closer look

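Among the 10 genes, 5 were singled out because the siRNA 1 and siRNA 2 effects differed in the direct test (edgeR's quasi-likelihood test, Benjamini-Hochberg adjustment, 2-sided), which uses the control libraries for the spread only. The siRNA 1 effect minus the siRNA 2 effect on the log2 scale was -1.96 for HPGD (adjusted p = 2.41e-06), -0.81 for ELL2 (adjusted p = 1.83e-04), 0.74 for PMEPA1 (adjusted p = 3.84e-04), 0.49 for NDRG1 (adjusted p = 0.00227) and 0.40 for CAMKK2 (adjusted p = 0.00657). For each of the 5 the FPKM ranges of the 3 siRNA 1 and the 3 siRNA 2 libraries did not overlap, as for 7 of the 10 genes and 52.3% of all tested genes. KMT2C itself was at 1.87 ± 0.375 FPKM with siRNA 1 and 1.69 ± 0.0488 FPKM with siRNA 2 (SD, n = 3 each).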

How the results depend on the processing

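Of 570 values (10 genes, 3 comparisons, 19 alternatives), 536 kept their direction and their side of the threshold or stayed uncalled, 23 lost a call, 11 gained one, and no called value changed sign. The 23 losses were of HPGD (12) and SORD (11) with siRNA 1. Members called were 5 to 7 with siRNA 1, 7 to 8 with siRNA 2 and 5 to 6 between the siRNAs over all alternatives; leaving out single libraries gave 5 to 7, 7 to 8 and 5 to 6. All genes called ranged over left-out libraries from 4511 to 5082 with siRNA 1, from 5508 to 6706 with siRNA 2 and from 4109 to 4981 between the siRNAs. A minimum of 5 FPKM, under which fewer genes are tested, gave 3480, 3851 and 3197 calls. Upper quartile scaling moved the median log2 fold change of all genes by 0.05 with siRNA 1 and 0.10 with siRNA 2, and the share of lower genes among calls was 42.7% and 40.6%, beside 49.1% and 50.6% with TMM. Replicate numbers did not pair the samples: same-numbered libraries had correlations of -0.070 to 0.040 between their deviations from group means, and 0 of 9 libraries correlated best with its own number. Pairs with other numbers had -0.08 to 0.09. This check covers the numbering only, and batches shared between groups under other numbers were not tested. With a replicate block 5 of the 10 genes were called with siRNA 1, 7 with siRNA 2 and 5 between the siRNAs, beside 39.0%, 47.3% and 37.1% of all tested genes.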
